A study of Mus musculus with 43 samples.

Results

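Genes of the unfolded protein response and the heat shock response were followed in mouse neurons and microglia. The 43 genes were chosen by name, with no measured value in the rule, out of the 23953 gene symbols that each library lists. All 43 were listed. By role they were 14 chaperones and folding enzymes of the endoplasmic reticulum (ER), 4 genes of ER-associated degradation, 6 stress sensors and transcription factors, 4 targets of the integrated stress response, 11 cytosolic chaperones and cochaperones, the 2 parts of the mitochondrial chaperonin and 2 heat shock factors.

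RNA was sequenced from visual cortex in 43 libraries, 31 of neuronal nuclei and 12 of microglia. GENUS is sensory stimulation with light that flickers at 40 Hz. The microglia groups were CK-p25 mice given GENUS (4 libraries), CK-p25 mice without stimulation (4) and CK controls (4), and the matching groups of neurons held 4, 5 and 5 libraries. A second set of neurons came from P301S mice given GENUS (5 libraries), P301S mice without stimulation (6) and WT controls (6). CK-p25 mice carry Camk2a-tTA and tetO-CDK5R1/GFP, so the Cdk5 activator p25 is driven in excitatory neurons by the Camk2a promoter once doxycycline is withdrawn, here for 6 weeks, and the microglia are not the cells that this promoter targets. The P301S line is Tg(Prnp-MAPT*P301S)PS19, in which a Prnp promoter drives human tau with the P301S change, at 8 months of age. GENUS lasted 43 days in CK-p25 mice and 22 days in P301S mice. The labels call CK and WT wild-type controls and give neither their age nor their alleles. Nuclei were sorted by NeuN and gave nuclear RNA, microglia were sorted on CD11b and CD45 for total RNA, and each had its own library kit. Nothing in the labels says that replicates were separate animals, so each p-value measures only the spread between these libraries, which may be technical.

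The ER folds secreted and membrane proteins with the help of chaperones such as Hspa5 (BiP). When unfolded proteins build up, the sensors Ern1 (IRE1), Eif2ak3 (PERK) and Atf6 raise the transcription of chaperone and degradation genes, while PERK also slows translation and raises Atf4, which induces Ddit3 (CHOP), Trib3, Chac1 and Asns. Other kinases that sense amino acid shortage, viral RNA or haem shortage feed into the same Atf4 branch, which is why it is called the integrated stress response. Unfolded proteins in the cytosol act through heat shock factor Hsf1, whose targets include Hspa1a, Hspa1b, Dnajb1, Hsph1 and the mitochondrial chaperonin genes Hspd1 and Hspe1.

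These branches read known sequence motifs, and the promoters of members that the results turn on are shown for that reason. RefSeq promoters of build GRCm38.p6, from 250 bases before to 50 bases after the start site, were matched by symbol to 36 of the 43 members, 5 of which have several promoters. The submitters' processing notes name mm9 for the expression files, so the promoters were matched by name only. Asns, Chac1, Hspa5, Sdf2l1 and Hspe1 are shown for the 250 bases before the start site, and Trib3 and Herpud1 for 29 bases round the match. Capitals mark the amino acid response element (TGATGNAAN, where N is any base, read by Atf4 and related factors) in Asns, Chac1, Trib3 and Herpud1, the ER stress element (CCAAT and CCACG with 9 bases between them, read by Atf6 and Xbp1) in Hspa5, the end of that element, CCACG, in Sdf2l1, where it is on the other strand, and 2 overlapping heat shock elements in Hspe1.
Asns, chr6:7693210-7693459, minus strand: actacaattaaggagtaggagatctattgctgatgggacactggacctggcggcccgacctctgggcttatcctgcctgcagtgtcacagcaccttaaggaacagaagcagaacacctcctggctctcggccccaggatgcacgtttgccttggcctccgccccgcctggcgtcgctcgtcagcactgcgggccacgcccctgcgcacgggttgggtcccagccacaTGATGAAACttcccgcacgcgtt
Chac1, chr2:119350992-119351241, plus strand: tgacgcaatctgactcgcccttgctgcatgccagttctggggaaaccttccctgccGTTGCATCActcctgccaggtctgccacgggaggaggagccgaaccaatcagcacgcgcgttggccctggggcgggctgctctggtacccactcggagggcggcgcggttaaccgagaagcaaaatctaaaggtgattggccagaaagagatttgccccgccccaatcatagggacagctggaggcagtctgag
Trib3, chr2:152344029-152344057, minus strand: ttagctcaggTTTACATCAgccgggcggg
Herpud1, chr8:94386306-94386334, plus strand: accacggcggGTTGCATCAgcccgcaccc
Hspa5, chr2:34771840-34772089, plus strand: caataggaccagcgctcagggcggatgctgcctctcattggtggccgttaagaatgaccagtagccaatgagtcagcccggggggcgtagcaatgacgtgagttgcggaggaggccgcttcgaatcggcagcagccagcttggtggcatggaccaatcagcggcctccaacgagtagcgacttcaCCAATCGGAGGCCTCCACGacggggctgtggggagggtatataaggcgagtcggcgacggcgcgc
Sdf2l1, chr16:17132384-17132633, minus strand: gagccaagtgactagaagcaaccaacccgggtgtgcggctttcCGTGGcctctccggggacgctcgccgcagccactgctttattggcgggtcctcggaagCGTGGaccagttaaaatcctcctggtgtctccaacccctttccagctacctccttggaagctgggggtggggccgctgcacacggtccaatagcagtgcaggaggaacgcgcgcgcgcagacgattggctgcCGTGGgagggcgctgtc
Hspe1, chr1:55087898-55088147, plus strand: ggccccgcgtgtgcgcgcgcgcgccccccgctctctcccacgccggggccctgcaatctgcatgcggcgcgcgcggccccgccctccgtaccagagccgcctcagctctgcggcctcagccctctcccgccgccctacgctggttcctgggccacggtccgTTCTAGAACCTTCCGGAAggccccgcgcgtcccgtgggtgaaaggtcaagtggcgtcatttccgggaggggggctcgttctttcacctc

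Both strands of the 300 bases were searched for each motif. The ER stress element was found in 8 of the 36 members (Calr, Canx, Creld2, Dnajc3, Hsp90b1, Hspa5, Pdia6 and Syvn1), against 0.137% of the 27025 symbols with a promoter. These 8 comprise 7 ER chaperones or folding enzymes and Syvn1, the ubiquitin ligase of ER-associated degradation. Read in the motif's direction, the sites between the fixed letters differ in each gene, as 3 of them show beside that of Hspa5.
Calr, chromosome 8: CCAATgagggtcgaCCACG
Canx, chromosome 11: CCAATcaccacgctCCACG
Dnajc3, chromosome 14: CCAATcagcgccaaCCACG
CCACG alone, which every full ER stress element contains, was in 28 of the 36 members and in 35.5% of symbols. The amino acid response element was in 4 members (Asns, Chac1, Herpud1 and Trib3) and in 4.50% of symbols. A heat shock element, searched as GAA, TTC and GAA or as TTC, GAA and TTC with 2 bases between one and the next, was in Hspd1, Hspe1 and Hsph1 and in 0.662% of symbols. Hspd1 and Hspe1 lie head to head, so the run in capitals for Hspe1 is also in an Hspd1 promoter, read from the other strand. The unfolded protein response element TGACGTGG was in 0 of the 36 members and in 0.714% of symbols. A match describes these letters only, and no match says nothing of a factor's binding.

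The deposited values are FPKM, fragments scaled to transcript length and a measure of library size. Median-ratio factors, which compare the libraries of a set over genes, ran only from 1.01 to 1.03 over the sets. Whole reads could not be recovered from the values, so the depth behind each is unknown. The share of summed FPKM in small RNA genes was 71.6% to 84.0% in the CK-p25 neuron set, 54.9% to 75.9% in the P301S set and 0.0996% to 0.186% in microglia. Replicates of a group correlated at 0.878 to 0.912, 0.837 to 0.886 and 0.946 to 0.976 over the tested genes of these sets. Between 70 and 533 tested genes of a library were at exactly 0, and a 0 is therefore reported only as a listing. Defining markers matched the sorts: the 6 neuron markers summed to 830 to 1405 FPKM in neuron libraries and 1.55 to 19.8 FPKM in microglia libraries, and the 10 microglia markers to 7.96 to 33.4 FPKM and 38656 to 57831 FPKM. In neurons, the immediate early genes, the proliferation genes, the astrocyte gene Gfap and the microglia gene C1qc differed between CK-p25 and CK libraries. Their values stand beside the results they move with. In the P301S set and in microglia the libraries also fall on 2 sides of the first principal component of all genes other than the members, which holds 12.8% and 29.5% of the variance. The sides follow the replicate numbers: replicates 1 to 3 against 4 to 6 in P301S and WT neurons, 1 and 2 against 3 to 5 in P301S GENUS neurons, and 1 and 2 against 3 and 4 in all 3 microglia groups. The labels name no batch, so within-side values are given beside the results they touch.

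Levels of the ER chaperones ran over a wide range in both cell types. In CK microglia Hspa5 averaged 583 ± 72.6 FPKM, followed by Pdia3, a disulfide isomerase that works on glycoproteins, at 545 ± 52.8 FPKM and Hsp90b1 (GRP94) at 365 ± 27.9 FPKM (SD, n = 4 each). Hspa5 and Pdia3 overlapped over these libraries. In CK neurons the order began with the cytosolic Hsp90ab1 at 164 ± 17.4 FPKM, the lectin chaperone Calr (calreticulin) at 162 ± 28.8 FPKM and Hsp90b1 at 157 ± 29.4 FPKM (SD, n = 5 each), and these 3 overlapped too. WT neurons began with Calr at 242 ± 35.9 FPKM, Hsp90b1 at 203 ± 36.9 FPKM and Hsp90ab1 at 201 ± 47.7 FPKM (SD, n = 6 each). The lowest members differed by cell type. In neurons Trib3, Hspa1a, Hspa1b, Hspb1 and Bag3 averaged below 1 FPKM over the libraries of each set and were not tested. In microglia that held of Hsf2 alone, while Hspa1a, an inducible Hsp70, averaged 109 ± 55.6 FPKM and its near copy Hspa1b 157 ± 82.9 FPKM in CK libraries (SD, n = 4). Reads of these near-identical genes can be assigned to either, so their split is uncertain. Neurons and microglia differ in kit, RNA fraction and scaling, so levels were not tested between them.

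**Figure D1:**
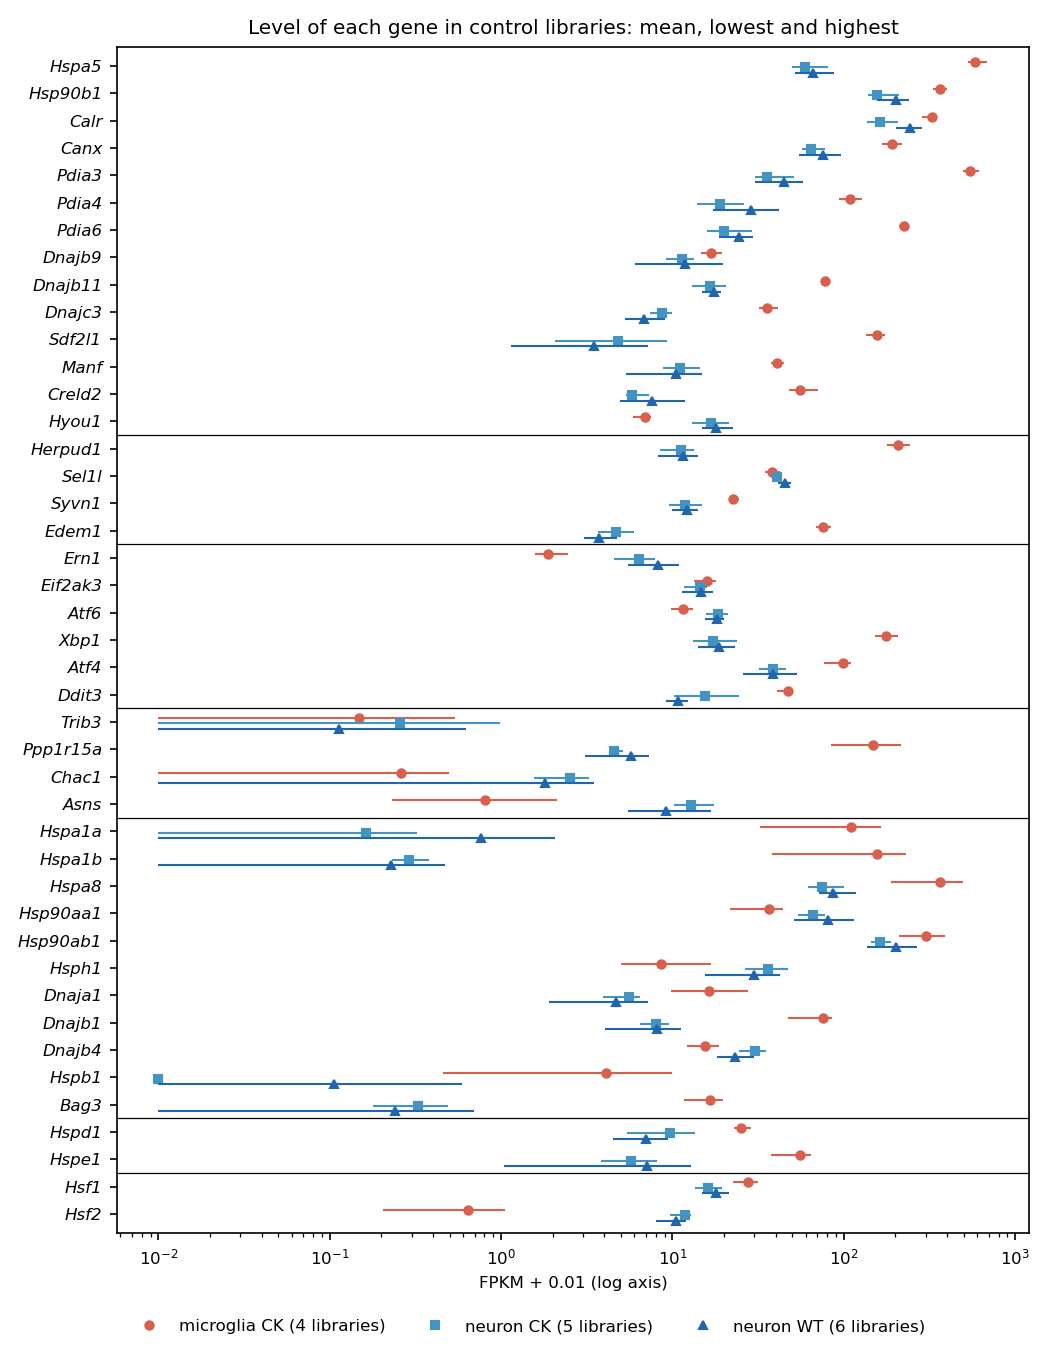
FPKM + 0.01 of each of the 43 genes, on a log axis, in the control groups of microglia (CK, 4 libraries) and neurons (CK, 5, and WT, 6), with a symbol for the mean, a line from the lowest to the highest library and rules between roles. ER chaperones such as Hspa5, Calr and Hsp90b1 lie at the high end in both cell types, and Hspa1a, Hspa1b and Bag3 are low in neurons and not in microglia, while Hspb1 is among the low members in both. The microglia values were scaled apart from those of neurons.

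Microglia from CK-p25 mice had higher levels of the Atf4 targets Trib3, Chac1 and Asns and of the ER chaperone gene Sdf2l1 than microglia from CK mice, and lower levels of the sensor Eif2ak3. Ddit3, Hspd1 and Calr were also higher, and 0 of 11 cytosolic chaperones passed the test. Of 42 members tested, 7 rose and 1 fell, which is 8 members against 27% of all 10394 genes tested that passed in either direction. By direction 16.1% of all genes rose and 10.9% fell (1672 and 1130 genes), so the members' share was not above the background. When FPKM was rescaled to its sum without small RNA genes, the median of all genes moved from -0.02 to -0.31, 1018 genes rose and 3835 fell, and 4 members rose and 11 fell. Trib3, Chac1 and Asns averaged below 1 FPKM in CK libraries and passed the filter, a mean of 1 FPKM over the 12 libraries, through the CK-p25 groups where they are high, so their calls support nothing about the group of targets. Changes are differences of log2(FPKM + 1), which understates the change of low genes, tested with limma and adjusted over all tested genes by the Benjamini-Hochberg method, with 0.05 as the threshold. In such bulk samples fewer cells of a type and less RNA per cell cannot be told apart.

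Among the integrated stress response targets, Trib3, a pseudokinase that restrains Akt and Atf4 signalling, was at 5.04, 6.50, 4.24 and 4.23 FPKM in CK-p25 microglia, against 0, 0.528, 0.0211 and 0 FPKM in CK microglia. Every CK-p25 library was above every CK library, of which 2 list the gene at 0. The log2 change was 2.41 (SE 0.40, adjusted p = 0.000485). Chac1, which degrades glutathione, was at 2.09, 2.65, 2.23 and 1.82 FPKM in CK-p25 libraries, against 0, 0.229, 0.485 and 0.293 FPKM in CK libraries. The groups did not overlap, and the log2 change was 1.36 (SE 0.29, adjusted p = 0.00301). Asns, asparagine synthetase, was at 4.94, 7.48, 2.45 and 2.53 FPKM in CK-p25 libraries and 0.220, 0.408, 2.12 and 0.418 FPKM in CK libraries. CK replicate 3 stood close to the lowest CK-p25 library and the other CK libraries lay far below. Its log2 change was 1.58 (SE 0.43, adjusted p = 0.0136). The remaining target, Ppp1r15a (GADD34), which restarts translation after stress, was at 146, 200.4, 233 and 401 FPKM in CK-p25 libraries and 95.5, 83.7, 194 and 216 FPKM in CK libraries. These groups overlapped and the log2 change of 0.75 did not pass (adjusted p = 0.106). Within replicates 1 and 2, and within replicates 3 and 4, the CK-p25 libraries were above the CK libraries. With a pseudocount of 0.1 in place of 1 the changes were 4.92 for Trib3, 2.95 for Chac1 and 2.60 for Asns, and each passed.

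Of the sensors and transcription factors, Eif2ak3 was at 10.8, 9.65, 9.51 and 9.54 FPKM in CK-p25 microglia, against 18.0, 15.5, 17.2 and 13.3 FPKM in CK microglia. All CK-p25 libraries were below all CK libraries, with a log2 change of -0.64 (SE 0.11, adjusted p = 0.000841). Ddit3, the transcription factor CHOP, was at 56.1, 82.6, 65.1 and 89.9 FPKM in CK-p25 libraries and 40.6, 50.5, 48.7 and 49.0 FPKM in CK libraries. The groups were separate by a narrow gap, and the log2 change was 0.61 (SE 0.14, adjusted p = 0.00403). Under the summed scaling it was 0.29 and did not pass (adjusted p = 0.0758). Xbp1, whose mRNA is spliced by Ern1, was at 117, 114, 170.0 and 153 FPKM in CK-p25 libraries and 207, 186, 161 and 153 FPKM in CK libraries. It overlapped between the groups and did not pass (log2 change -0.36, adjusted p = 0.0726). Gene-level FPKM does not separate its spliced and unspliced forms. Atf4, which is controlled mainly by translation, had a log2 change of 0.04 (adjusted p = 0.90), Atf6 one of -0.07 (adjusted p 0.792) and Ern1 one of -0.05 (adjusted p 0.917).

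ER chaperones changed one by one. Sdf2l1, an ER protein that works with Hspa5 and its J-domain partners, was at 275, 255, 323 and 242 FPKM in CK-p25 microglia and 173, 159.8, 156 and 135 FPKM in CK microglia. The lowest CK-p25 library stood well above the highest CK library, and the log2 change was 0.81 (SE 0.11, adjusted p = 6.85e-05), the smallest p of any member in this comparison. Under the summed scaling the change was 0.48 (adjusted p = 0.00471). Calr was at 439, 399, 434 and 355 FPKM in CK-p25 libraries and 347, 335, 336 and 285 FPKM in CK libraries. These groups were separate, but narrowly. Its log2 change of 0.32 (SE 0.09, adjusted p = 0.0181) lost its call without CK replicate 4, CK-p25 replicate 1 or CK-p25 replicate 3, at adjusted p of 0.0595, 0.0553 and 0.0552. Scaled to summed FPKM without small RNA genes, it was -0.00306. Hspa5 was at 571, 539.8, 795 and 802 FPKM in CK-p25 libraries, against 689.7, 548, 562 and 531 FPKM in CK libraries. CK-p25 replicates 3 and 4 were high and replicates 1 and 2 were within the CK range, so the log2 change of 0.20 did not pass (adjusted p = 0.434). Over the 14 ER chaperones 2 rose and 0 fell, with a median log2 change of 0.07, or -0.24 under the summed scaling. Within the sides that median was -0.10 for replicates 1 and 2 (3 of 14 above 0) and 0.21 for replicates 3 and 4 (13 of 14 above 0). Of the 4 degradation genes, 0 passed, and their median was 0.07.

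Hspd1 (Hsp60), which folds imported mitochondrial proteins, was at 35.9, 37.7, 42.6 and 38.1 FPKM in CK-p25 microglia and 28.9, 22.7, 24.7 and 24.4 FPKM in CK microglia. The groups did not overlap and the log2 change was 0.60 (SE 0.13, adjusted p = 0.00391). Under the summed scaling it was 0.28 and did not pass (adjusted p = 0.117). Its partner Hspe1 (Hsp10) was at 75.8, 69.2, 75.1 and 97.2 FPKM in CK-p25 libraries and 64.5, 37.4, 64.3 and 56.9 FPKM in CK libraries. These groups were also separate, yet the log2 change of 0.52 did not pass (adjusted p = 0.108). Among all members 8 were separate and higher and 1 separate and lower, against 15.9% and 12% of all genes. Hsf1 had a log2 change of -0.29 (adjusted p = 0.255).

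Other genes of these pathways were tallied from longer lists. These lists were chosen with earlier results of these data known, so their shares support nothing about the pathways. No tally of them is given under the summed scaling. Of 22 further integrated stress response genes tested, 8 (36.4%) rose and 0 fell, beside 16.1% and 10.9% of all genes. The 5 with the smallest p were Eif2ak2 (PKR, the kinase that senses double-stranded RNA), with a log2 change of 1.17, the serine synthesis gene Psat1 at 1.42, the transcription factors Cebpb at 1.47 and Atf3 at 1.37, and the stress-induced gene Nupr1 at 1.03. Eif2ak2 averaged 11.2 ± 0.757 FPKM in CK-p25 libraries and 4.44 ± 0.450 FPKM in CK libraries, and Psat1 49.1 ± 11.5 FPKM and 17.7 ± 3.62 FPKM (SD, n = 4 each). Of 23 further ER genes, 6 (26.1%) rose and 1 fell, led by Sil1, the nucleotide exchange factor of Hspa5 (0.79), the degradation lectin Os9 (0.76), the oxidase Ero1l (0.55), Dnajb14 (1.18) and the translocon subunit Sec61b (0.37). Of 36 further chaperones, 6 (16.7%, close to the share of all genes) rose and 2 fell, led by Bag1, a cochaperone of Hsp70 (1.17), the mitochondrial Hsp70 gene Hspa9 (0.58), Hspa4 (0.45) and the chaperonin subunit Cct2 (0.28), which rose, and Hspa14 (-0.35), which fell.

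Other measures moved with these differences. Summed over 9 genes, immediate early genes that tissue handling can raise were at 6231 to 10019 FPKM in CK-p25 microglia and 4062 to 6534 FPKM in CK microglia. Oligodendrocyte markers (6 genes, Mbp among them) summed to 134 to 231 FPKM in CK-p25 libraries and 150 to 956 FPKM in CK libraries, where CK replicates 3 and 4 were high. Proliferation genes (6) summed to 50.4 to 62.1 FPKM and 31.6 to 41.5 FPKM in CK-p25 and CK libraries. Endothelial markers (3) summed to 4.56 to 7.82 FPKM and 12.1 to 17.7 FPKM in these groups. They did not move together, since Pecam1 had a log2 change of -2.27 and Flt1 one of 1.23, and both passed. Microglia markers were split too. P2ry12 (-1.82), Tmem119 (-1.48), Cx3cr1 (-0.79) and Csf1r (-0.50) fell past the threshold, and C1qa (0.87), C1qb (0.73), C1qc (0.45) and Ctss (0.79) rose past it. The astrocyte genes Gfap (2.62) and Slc1a3 (-0.39) and the neuronal gene Snap25 (-1.62) also passed. The part of these measures in the results was not tested.

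**Figure D2:**
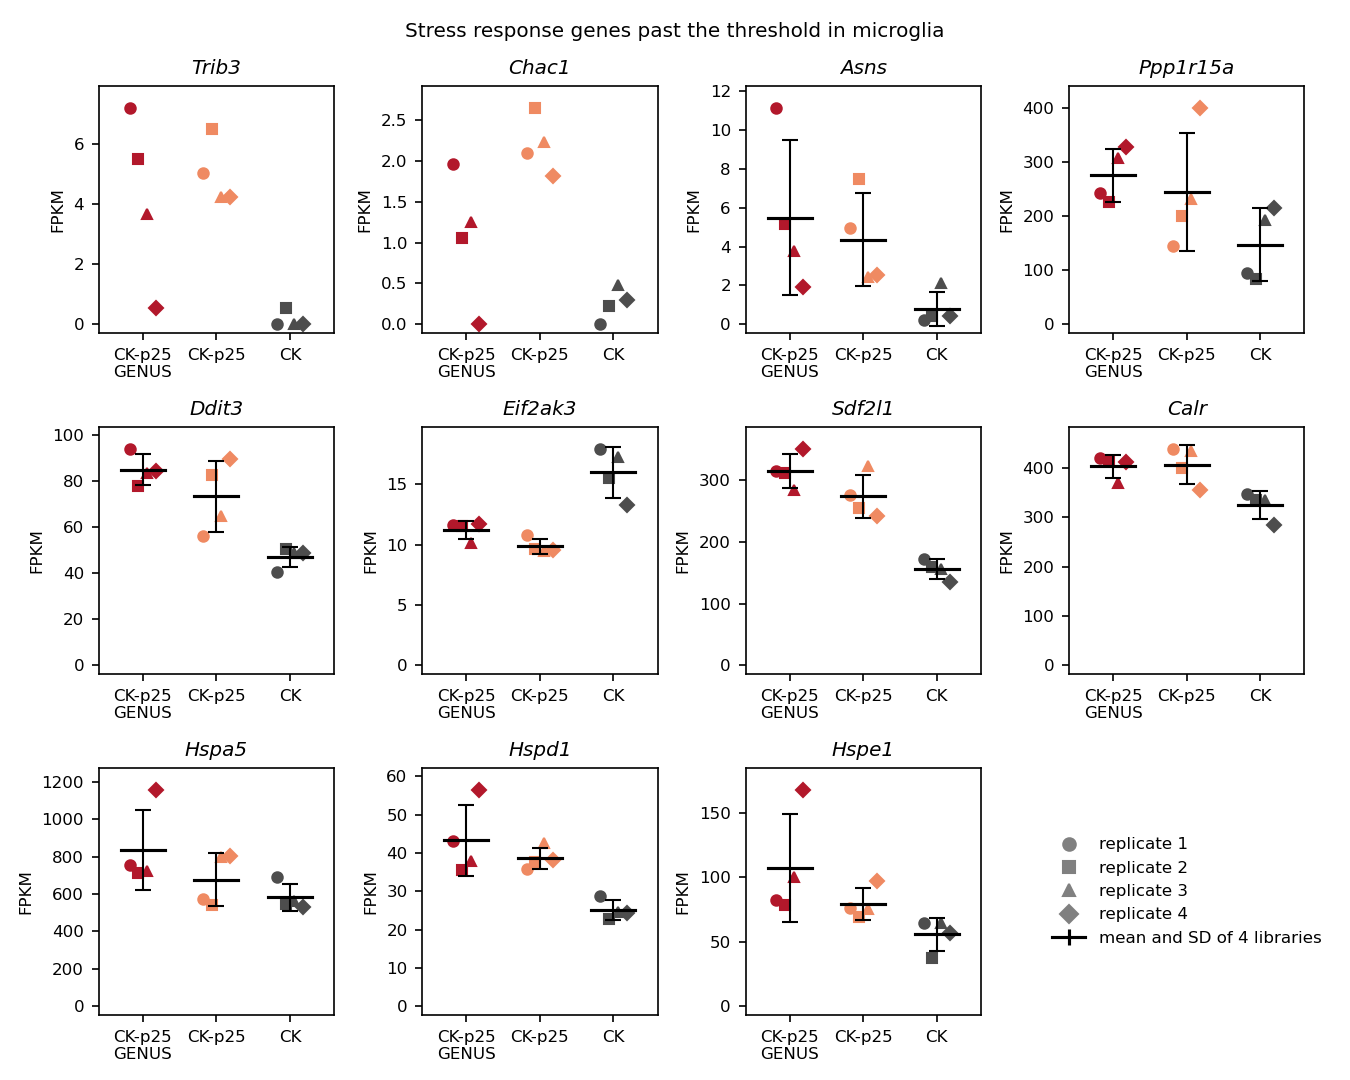
FPKM of members that passed the test in microglia, with a symbol for each library and black bars for the mean and SD (none for Trib3 and Chac1, which some libraries list at 0), for CK-p25 GENUS, CK-p25 and CK groups of 4 libraries. Trib3 lies at 4.23 to 6.50 FPKM in CK-p25 libraries and at most at 0.528 FPKM in CK libraries, and Eif2ak3 is lower in both CK-p25 groups than in CK.

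GENUS was compared with no stimulation in CK-p25 microglia. Of 42 members 0 passed, and 0 of 10394 genes passed in all, which is 0%, with 762 (7.33%) at an unadjusted p under 0.05. At that unadjusted level 2 members were higher and 2 lower. The 5 members with the smallest p were Manf, an ER protein secreted under stress, Chac1, the disulfide isomerase Pdia4, Ern1 and Sdf2l1. Manf was at 45.6, 46.3, 49.7 and 70.5 FPKM in GENUS libraries and 34.0, 30.1, 50.2 and 43.7 FPKM in CK-p25 libraries. The groups overlapped through CK-p25 replicate 3, and its log2 change was 0.42 (adjusted p = 0.634), or 0.28 without GENUS replicate 4. Chac1 was at 1.97, 1.06, 1.25 and 0 FPKM in GENUS libraries, where replicate 4 lists it at 0, with a log2 change of -0.73 (adjusted p 0.64), or -0.41 without that library. Pdia4 had a log2 change of 0.31 (adjusted p 0.672), Ern1 one of -0.52 (adjusted p 0.679) and Sdf2l1, at 315, 311, 284 and 351 FPKM in GENUS libraries, one of 0.21 (adjusted p 0.732).

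Heat shock genes in this comparison rest on 1 library. Hspa1a was at 46.7, 44.7, 86.1 and 403 FPKM in GENUS microglia, 65.9, 45.2, 66.0 and 128 FPKM in CK-p25 microglia and 125, 32.2, 116 and 164 FPKM in CK microglia. GENUS replicate 4 was the highest of the 12 libraries, and the other 3 GENUS libraries lay within the range of the other groups. Dnajb1, a J-domain partner of Hsp70, was at 51.9, 51.3, 73.5 and 219 FPKM, 49.8, 47.5, 56.1 and 76.8 FPKM and 83.5, 47.3, 85.0 and 85.7 FPKM in GENUS, CK-p25 and CK libraries. Hsp90aa1, the inducible Hsp90, was at 34.4, 36.0, 42.6 and 93.4 FPKM, 33.7, 31.2, 35.8 and 52.5 FPKM and 41.4, 21.6, 39.3 and 44.0 FPKM in these groups. Hsph1 (Hsp110) was at 12.6, 10.3, 10.3 and 38.5 FPKM, 11.3, 9.69, 16.5 and 15.6 FPKM and 16.7, 5.00, 6.02 and 6.49 FPKM. In each of the 4 genes GENUS replicate 4 was above every other microglia library. Hspa1b, Hspa8, Hsp90ab1, Dnaja1, Dnajb4, Hspb1 and Bag3 were also highest there, as were Hspa5 at 1157 FPKM and Hspe1 at 168 FPKM. CK replicate 2 was the lowest CK library for Hspa1a, Hspa8, Hsp90aa1 and Dnajb1.

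The 11 cytosolic chaperones had a median log2 change of 0.24 with GENUS, with 11 of 11 above 0, against 49.3% of all genes. Without GENUS replicate 4 the median was -0.02, with 3 above 0 and 8 below. Within the sides, the median was 0.07 for replicates 1 and 2 and 0.53 for replicates 3 and 4. In GENUS replicate 4 the neutrophil and monocyte marker genes S100a8 and S100a9 were at 625 FPKM and 391 FPKM. In the other GENUS libraries S100a8 was at 13.7 to 42.1 FPKM and S100a9 at 5.75 to 39.5 FPKM, in CK-p25 libraries at 76.8 to 168 FPKM and 52.5 to 139 FPKM, and in CK libraries at 124 to 209 FPKM and 90.3 to 163 FPKM. The 6 markers of perivascular macrophages, monocytes and neutrophils summed to 40.9 to 1105 FPKM in GENUS, 175 to 425 FPKM in CK-p25 and 249 to 413 FPKM in CK libraries. Their part in the heat shock values was not tested. The integrated stress response targets did not move together in that library. Trib3 (0.539 FPKM), Asns (1.90 FPKM) and Chac1 (listed at 0) were the lowest of the GENUS group there, Ppp1r15a (327 FPKM) was the highest, and Ddit3 (84.6 FPKM) was within the range of the others.

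**Figure D3:**
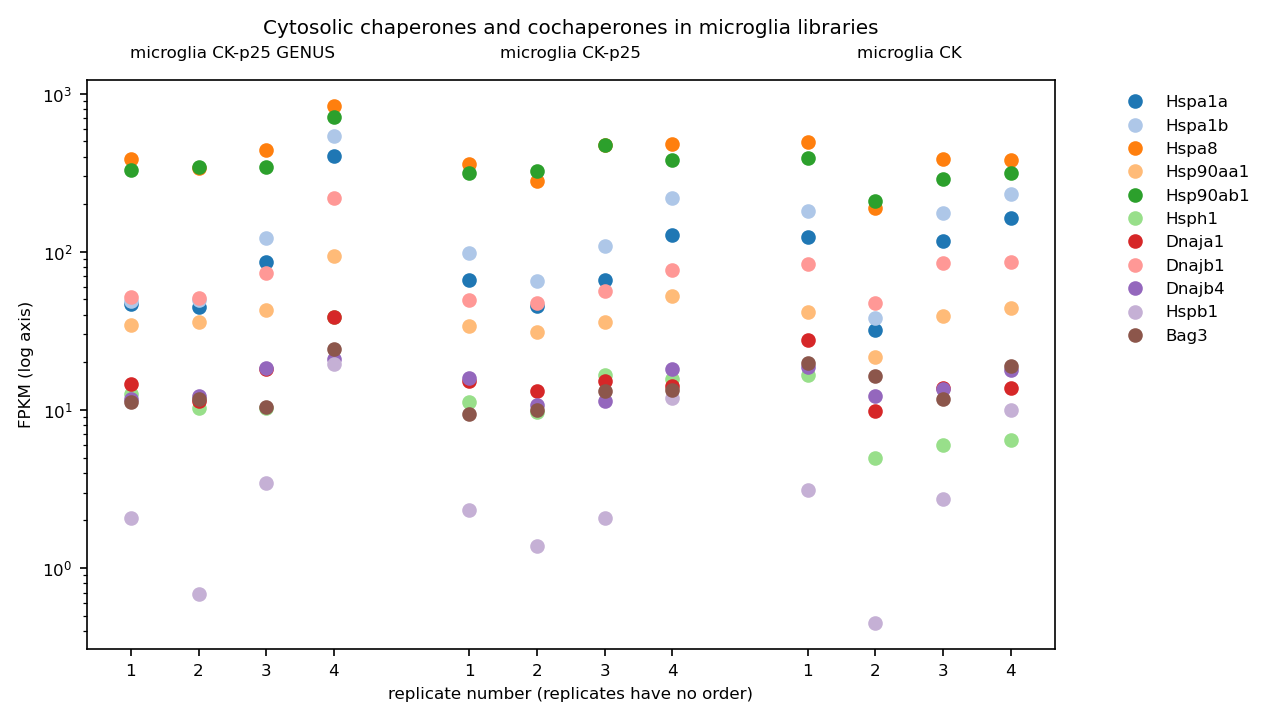
FPKM of the 11 cytosolic chaperones and cochaperones in each of the 12 microglia libraries, on a log axis, with 1 colour per gene and libraries ordered by group. GENUS replicate 4 is the highest library for each of the genes, for example at 403 FPKM for Hspa1a and 219 FPKM for Dnajb1.

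Set against CK microglia, the GENUS group had 9 members higher and 1 lower of 42 tested, 10 in all against 30.7% of all genes (17.3% higher, 13.4% lower). Under the summed scaling 5 members were higher and 14 lower, beside 1063 and 4251 of all genes. This comparison and that of CK-p25 with CK share the CK libraries. Sdf2l1 had a log2 change of 1.02 (adjusted p = 7.39e-06), Ddit3 one of 0.84 (adjusted p 0.000316) and Hspd1 one of 0.74 (adjusted p 0.000741). Ddit3 was at 94.2, 78.2, 83.5 and 84.6 FPKM in GENUS libraries, where all 4 were above all 4 CK libraries. The summed scaling gave changes of 0.67 for Sdf2l1, 0.50 for Ddit3 and 0.40 for Hspd1, and each passed. Trib3, at 7.21, 5.51, 3.66 and 0.539 FPKM in GENUS libraries, changed by 1.99 (adjusted p 0.00187). Replicate 4 stood barely above the highest CK library. Asns, at 11.1, 5.14, 3.78 and 1.90 FPKM in GENUS libraries, changed by 1.77 (adjusted p 0.00624), although replicate 4 lay below CK replicate 3. Eif2ak3 was lower in GENUS libraries, at 11.6, 11.5, 10.1 and 11.7 FPKM, with a log2 change of -0.47 (adjusted p 0.00658), or -0.79 under the summed scaling. With a pseudocount of 0.1 Trib3 changed by 4.25 and Asns by 2.81. Both averaged below 1 FPKM in CK libraries and passed the filter through the CK-p25 groups. Their calls therefore support nothing about the group of targets. Hspe1 rose by 0.89 (adjusted p 0.00837) and Calr by 0.31 (adjusted p 0.019). The change of Calr was -0.0348 when scaled to summed FPKM, where Hspe1 changed by 0.55 and did not pass (adjusted p = 0.0658). The call of Calr was lost without CK replicate 4 or GENUS replicate 2 (adjusted p of 0.0622 and 0.0503). Immediate early genes summed to 7836 to 9268 FPKM in GENUS microglia and 4062 to 6534 FPKM in CK microglia. Among the microglia markers P2ry12 fell (log2 change -1.87) and C1qa rose (0.97), and both passed. The part of these measures was not tested.

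Ppp1r15a and Hspa5 passed against CK only narrowly. Ppp1r15a was at 243, 226, 307 and 327 FPKM in GENUS libraries, with a log2 change of 1.0 (adjusted p = 0.0304). It kept its call in 4 of 8 runs that left out 1 library, and lost it without CK replicate 1 or 2 or GENUS replicate 3 or 4. Hspa5 was at 752, 711, 722 and 1157 FPKM in GENUS libraries, with a log2 change of 0.50 (adjusted p 0.0425). It kept its call in 3 of 8 such runs, and its log2 change was 0.33 without GENUS replicate 4. Under the summed scaling neither passed, at changes of 0.66 for Ppp1r15a and 0.15 for Hspa5 (adjusted p of 0.105 and 0.50). Without that library Chac1 (log2 change 0.95) and Bag3 (-0.52) passed, and Hspa5 and Ppp1r15a did not. Bag3 is the cochaperone that directs clients of Hsp70 to autophagy. The longer lists of further genes were chosen with earlier results known, so their shares below support nothing about the pathways. Of the further genes, 9 of 22 integrated stress response genes (40.9%) rose and 0 fell, 6 of 23 ER genes (26.1%) rose and 1 fell, and 8 of 36 chaperones (22.2%) rose and 1 fell, beside 17.3% and 13.4% of all genes. By smallest p these were led by Eif2ak2 (log2 change 1.07), Cebpb (1.70), Psat1 (1.51), Nupr1 (1.28) and Atf3 (1.47), by Sil1 (0.79), Sec61b (0.61), Os9 (0.69), Ero1l (0.59) and Dnajb14 (1.17), and by Bag1 (1.27), Cct2 (0.51), Hspa9 (0.56), Hsbp1 (0.29) and Hspa4 (0.37).

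In neurons, p25 was set against CK. Of 38 members tested 0 passed, against 1.01% of 12567 genes that passed (0.891% higher, 0.119% lower). At an unadjusted p under 0.05, 3 members were higher and 4 lower, and 11.2% of all genes reached that level. Hsf1, the main heat shock factor, was at 18.4, 22.6, 22.8, 20.3 and 23.3 FPKM in CK-p25 neurons and 16.5, 17.4, 19.3, 13.8 and 13.6 FPKM in CK neurons. The groups overlapped in 1 pair of libraries and the log2 change was 0.40 (SE 0.11, adjusted p = 0.155). Eif2ak3 was at 18.0, 17.5, 18.8, 16.4 and 17.1 FPKM in CK-p25 neurons, against 11.7, 15.9, 15.9, 14.6 and 14.3 FPKM in CK neurons. All CK-p25 libraries were above all CK libraries, as 2.05% of all genes were, and the log2 change of 0.27 did not pass (adjusted p = 0.255). Ern1 had a log2 change of 0.38 (adjusted p 0.334), and the cytosolic chaperone genes Hsp90ab1 and Hsph1 had changes of -0.38 (adjusted p 0.281) and -0.32 (adjusted p 0.322).

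All 7 cytosolic chaperones tested in this comparison were below 0, beside 50.3% of all genes. Their median log2 change was -0.32. In each of the 10 runs that left out 1 library, 7 of 7 were below 0, with a median of -0.33 to -0.22. Hspa8, the constitutive Hsp70, was at 94.7, 54.8, 46.8, 51.4 and 56.8 FPKM in CK-p25 neurons and 71.8, 67.0, 73.5, 61.4 and 101 FPKM in CK neurons. CK-p25 replicate 1 was high and the groups overlapped. Hsp90ab1 was at 169, 113, 123, 108 and 121 FPKM in CK-p25 neurons and 153, 161, 189, 144 and 171 FPKM in CK neurons. Again CK-p25 replicate 1 lay among the CK libraries. Of the longer lists, 0 of 23 ER genes and 0 of 22 integrated stress response genes passed. Of 36 further chaperones Dnaja2, a J-domain partner of Hsp70, fell, with a log2 change of -0.41 (adjusted p = 0.0379). The 14 ER chaperones had a median of 0.02, with 8 above 0, and summed to 554 to 634 FPKM in CK-p25 neurons and 532 to 770 FPKM in CK neurons. CK replicate 5 held the highest of these sums and also the highest share of small RNA, 84.0%, and without it the ER median was 0.09. Immediate early genes summed to 67.0 to 128 FPKM in CK-p25 neurons and 134 to 220 FPKM in CK neurons, and proliferation genes to 15.7 to 23.2 FPKM and 0.535 to 1.27 FPKM. The immediate early genes did not move together, since Egr1 had a log2 change of -1.16 and Jun one of 0.94, and both passed. Microglia markers summed to 14.1 to 21.5 FPKM in CK-p25 neurons and 8.77 to 14.3 FPKM in CK neurons. Astrocyte markers summed to 121 to 178 FPKM and 126 to 154 FPKM in these groups. The microglia gene C1qc had a log2 change of 1.23 and the astrocyte gene Gfap one of 2.52, and both passed. The neuronal gene Snap25 was at 380.5, 248, 293, 276 and 265 FPKM in CK-p25 neurons and 349.9, 364, 379, 300.5 and 374 FPKM in CK neurons, with CK-p25 replicate 1 above all CK libraries. Their part in these values was not tested.

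GENUS against no stimulation in CK-p25 neurons gave 0 of 38 members past the threshold, and 0% of 12567 genes, with 933 genes (7.42%) at an unadjusted p under 0.05. The 5 smallest p were those of Atf4, Hsp90aa1, Hspe1, Hsf2 and Ern1. Atf4 was at 38.6, 49.7, 44.4 and 39.1 FPKM in GENUS neurons and 41.1, 32.7, 34.1, 32.9 and 32.0 FPKM in CK-p25 neurons. The groups overlapped through CK-p25 replicate 1, and the log2 change was 0.30 (adjusted p = 0.572). Hsp90aa1 had a log2 change of 0.27 (adjusted p 0.616), Hspe1 one of -0.91 (adjusted p 0.702), Hsf2 one of -0.16 (adjusted p 0.757) and Ern1 one of -0.25 (adjusted p 0.766). Hspe1 is listed at 0 in GENUS replicate 2, without which its change was -0.35, and with a pseudocount of 0.1 it was -1.73. The change of Ern1 was -0.15 without GENUS replicate 3. The ER chaperones had a median of 0.05 and the cytosolic chaperones one of 0.10.

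GENUS neurons of CK-p25 mice against CK neurons also gave 0 of 38 members, against 1.46% of all genes. Hsf1 was at 26.6, 21.3, 18.6 and 24.2 FPKM in GENUS neurons, with a log2 change of 0.47 (adjusted p = 0.0718). Its GENUS libraries overlapped with CK in replicate 3. Eif2ak3 was at 18.3, 21.8, 17.7 and 17.2 FPKM in GENUS neurons, above every CK library, with a log2 change of 0.35 (adjusted p 0.0877). Hsph1 had a log2 change of -0.35 (adjusted p 0.217), Hsf2 one of -0.24 (adjusted p 0.27) and Hspe1 one of -1.03 (adjusted p 0.334). Without GENUS replicate 2, which lists Hspe1 at 0, its change was -0.47, and with a pseudocount of 0.1 it was -1.89. Of the further ER genes, the oxidase Ero1l fell, by 0.44 on the log2 scale (adjusted p = 0.0477).

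**Figure D4:**
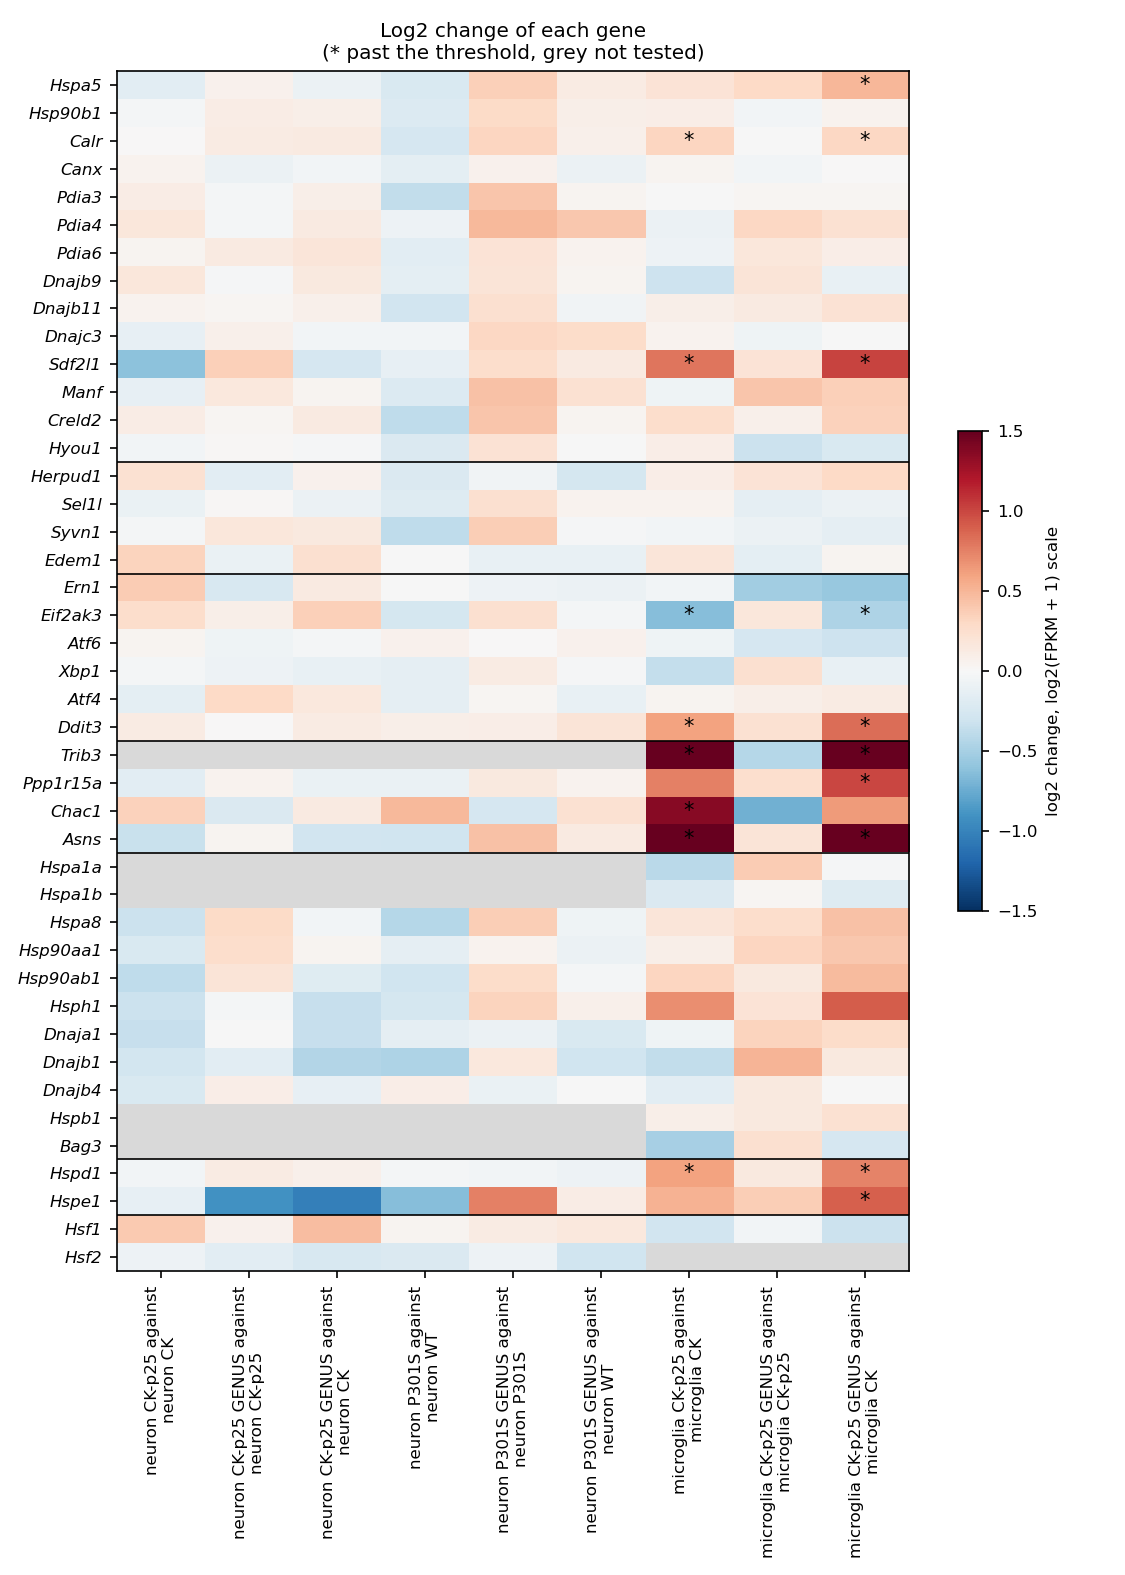
Log2 change of each tested member, on the log2(FPKM + 1) scale, in the 9 comparisons, as colour from blue (lower in the first-named group) to red (higher), with genes in rows by role, marks for an adjusted p under 0.05 and grey for genes not tested. Colours end at 1.5 in both directions, so that Trib3 and Asns in microglia lie beyond the scale, and all calls are in microglia set against CK.

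Neurons of P301S mice were set against WT neurons. Of 38 members 0 passed, and 1 of 12239 genes (0.00817%) did. At an unadjusted p under 0.05, 0 members were higher and 6 lower, while 5.64% of all genes reached that level. Syvn1 (Hrd1), the ligase of ER-associated degradation, had lowest, median and highest values of 7.32, 9.05 and 11.0 FPKM in P301S neurons and 9.95, 12.4 and 14.0 FPKM in WT neurons. The groups overlapped, and the log2 change was -0.38 (SE 0.11, adjusted p = 0.825). Its partner Sel1l was at 34.3, 39.5 and 45.4 FPKM in P301S neurons and 41.2, 45.6 and 49.3 FPKM in WT neurons, with a log2 change of -0.20 (adjusted p 0.856). Pdia3 had a log2 change of -0.37 (adjusted p 0.862), Dnajb1 one of -0.47 (adjusted p 0.862) and Eif2ak3 one of -0.27 (adjusted p 0.867). Of the 38 members 33 were below 0, against 48.6% of all genes, with a median log2 change of -0.18. The 14 ER chaperones were all below 0 with a median of -0.20, and the 7 cytosolic ones tested had a median of -0.26, with 6 below 0. Of the longer lists 0 of 22 ER genes, 0 of 21 integrated stress response genes and 0 of 36 chaperones passed.

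The ER values differed by side. Summed over the 14 ER chaperones, P301S neurons were at 569.8 to 706 FPKM in replicates 1 to 3 and 580.2 to 737 FPKM in replicates 4 to 6. WT neurons were at 603 to 665 FPKM in replicates 1 to 3 and 807 to 917 FPKM in replicates 4 to 6. The groups overlapped on the first side and were separate on the second. The median log2 change of the ER chaperones was 0.08 in replicates 1 to 3, with 5 of 14 below 0, and -0.45 in replicates 4 to 6, with 14 of 14 below 0. The small RNA share was 54.9% to 57.7% in P301S replicates 1 to 3 and 67.0% to 69.9% in replicates 4 to 6, against 55.9% to 62.8% and 61.0% to 64.5% on the same sides of the WT group. Immediate early genes summed to 52.1 to 154 FPKM in P301S neurons and 76.2 to 328 FPKM in WT neurons, and their part was not tested. With the small RNA share as a covariate 0 members passed, and the median was -0.20 over the members and -0.21 over the ER chaperones.

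GENUS against no stimulation in P301S neurons gave 0 of 38 members past the threshold and 0% of 12239 genes, with 524 genes (4.28%) at an unadjusted p under 0.05. At that level 4 members were higher and 0 lower. The 5 smallest p were those of Syvn1 (log2 change 0.36), Sel1l (0.25), Pdia3 (0.42), Calr (0.32) and Pdia4 (0.48), each with an adjusted p of 0.999. Pdia3 was at 34.0, 38.1, 57.2, 48.8 and 50.5 FPKM in GENUS neurons, and had lowest, median and highest values of 26.4, 35.0 and 41.4 FPKM in P301S neurons. The 3 high GENUS libraries were replicates 3 to 5, and replicates 1 and 2 lay within the range of P301S. Pdia4 was at 21.1, 25.9, 52.2, 44.3 and 51.8 FPKM in GENUS neurons and 23.3, 24.8 and 31.1 FPKM in P301S neurons. Its GENUS libraries split in the same way, with replicate 1 below the P301S range.

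All 14 ER chaperones were above 0 with GENUS, with a median of 0.30, and 30 of 38 members were above 0, beside 49.8% of all genes. In GENUS neurons the ER chaperones summed to 583 and 616 FPKM in replicates 1 and 2 and to 931 to 1002 FPKM in replicates 3 to 5. The ER median was -0.02 between GENUS replicates 1 and 2 and P301S replicates 1 to 3, with 7 of 14 above 0. It was 0.57 between GENUS replicates 3 to 5 and P301S replicates 4 to 6, with 14 of 14 above 0. Cytosolic chaperones summed to 305 and 333 FPKM in GENUS replicates 1 and 2, and 448 to 547 FPKM in replicates 3 to 5. In P301S neurons they summed to 287 to 317 FPKM in replicates 1 to 3 and 358 to 475 FPKM in replicates 4 to 6. The neuronal gene Snap25 and the share of small RNA moved with the sides as well: Snap25 was at 320.0 to 330.1 FPKM and 448 to 487 FPKM on the sides of the GENUS group, and small RNA at 58.1% to 59.6% and 70.4% to 75.9%. The part of Snap25 was not tested. With the small RNA share as a covariate 0 members passed, the median over the members was 0.14 against 0.21 without it, and the ER median was 0.23, with 13 of 14 above 0. With a term for the sides in the fit, 0 members passed and the ER median was 0.27.

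GENUS neurons of P301S mice against WT neurons gave 0 of 38 members and 0% of all genes, with 701 genes (5.73%) at an unadjusted p under 0.05 and 0 members among them. The 5 smallest p were those of Hsf2 (log2 change -0.29), Herpud1 (-0.27), Pdia4 (0.41), Dnajc3, which blocks PERK (0.27), and Dnajb1 (-0.30). The median over the members was 0.04 and over the ER chaperones 0.06. With the small RNA share as a covariate these medians were -0.04 and -0.01, Pdia4 was at 0.24 and Dnajc3 at 0.14. The change of Dnajc3 was 0.16 without GENUS replicate 5 and 0.18 without GENUS replicate 3. That of Dnajb1 was -0.14 without GENUS replicate 2 and -0.47 without WT replicate 2. These 3 comparisons share their libraries in pairs.

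**Figure D5:**
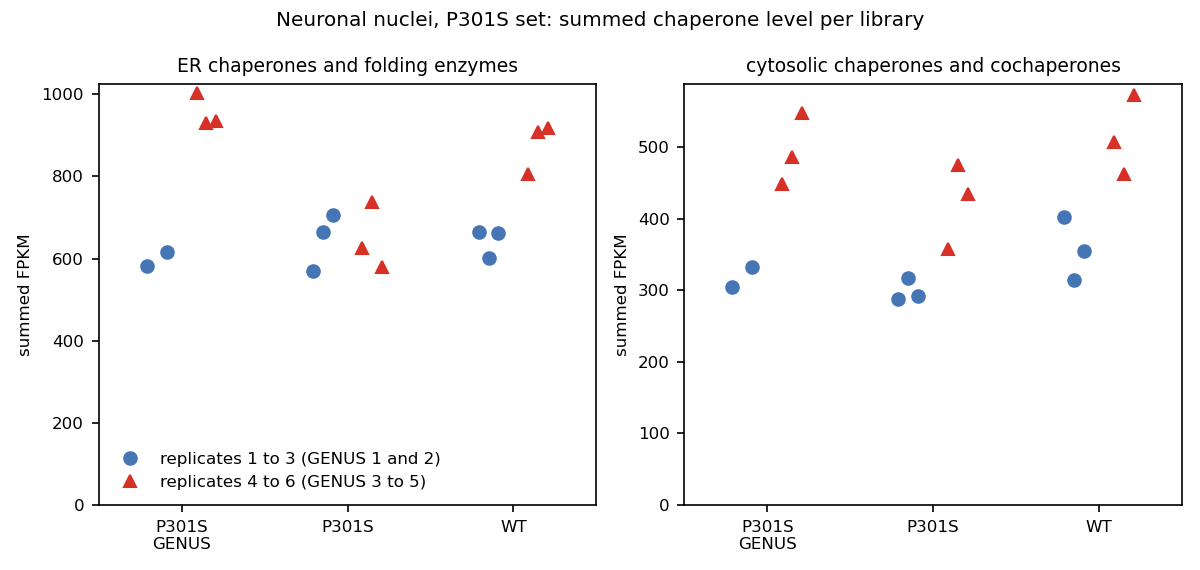
Summed FPKM of the 14 ER chaperones and of the 11 cytosolic chaperones in each neuron library of the P301S GENUS, P301S and WT groups, with symbols for the 2 sides of the first principal component. On the ER panel the GENUS libraries form 583 to 616 FPKM and 931 to 1002 FPKM clusters by side. WT libraries also split by side, at 603 to 665 FPKM and 807 to 917 FPKM, while P301S libraries lie at 569.8 to 737 FPKM on both sides.

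Effects were set against each other between sets by testing the difference of the log2 changes. The spread in each such test was pooled over the libraries of both sets. The change with p25 differed between microglia and neurons in 3 of 37 members, beside 12.9% of 8929 genes. Eif2ak3 was lower with p25 in microglia (-0.64) and at 0.27 in neurons, a difference of -0.90 (SE 0.14, adjusted p = 0.000113). Asns was higher in microglia (1.58) and at -0.33 in neurons, a difference of 1.91 (SE 0.45, adjusted p = 0.00544). Asns averaged below 1 FPKM in CK microglia and passed the filter there through the CK-p25 groups, so its call supports nothing about the Atf4 targets. Hsf1 was at -0.29 in microglia and 0.40 in neurons, a difference of -0.68 (SE 0.21, adjusted p = 0.0344). Neither change of Hsf1 passed by itself. Its difference lost the call in 9 of 18 runs that left out 1 library, at adjusted p of 0.0542 to 0.0882: microglia CK replicates 3 and 4, microglia CK-p25 replicates 1 and 2, neuron CK replicates 4 and 5 and neuron CK-p25 replicates 2, 3 and 5. Eif2ak3 and Asns kept theirs in all 18 runs. Sdf2l1, with a difference of 1.43, did not pass (adjusted p = 0.0523). Trib3 was not tested here, since it was filtered out in neurons. Kit, RNA fraction and sort differ between the cell types, and their part cannot be told apart. The change with p25 in neurons was not found to differ from that with P301S in any of 38 members (0.0997% of 12040 genes passed, smallest adjusted p of a member 0.291, with 3 members at an unadjusted p under 0.05). The change with GENUS differed in 0 of 38 members between CK-p25 and P301S neurons (0% of genes, 2 members at an unadjusted p under 0.05) and in 0 of 37 between microglia and neurons of CK-p25 mice (0% of genes, 1 member at that level).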

How the data were processed

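The deposited values are FPKM per gene symbol, made by the authors, 1 table per library. The submitters' processing notes name STAR, Cufflinks 2.0.0 and mm9, without their role or order, and the annotation is not given in the sources used here. Per the labels, neuronal nuclear RNA was made into libraries with a SMARTer Stranded Pico kit for total RNA and microglia RNA with SMART-Seq v4 Ultra Low Input. Depth is unknown, since whole reads could not be recovered, so no counting interval is given.

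Each set of 3 groups (neurons of CK-p25, neurons of P301S, microglia of CK-p25) was fitted in limma 3.58.1 (R 4.3.3) on log2(FPKM + 1), with the spread shared by the 3 groups and a trend with level. Genes with a mean of at least 1 FPKM over the set were tested (12567, 12239 and 10394) and p-values were adjusted over them (Benjamini-Hochberg), and 0.05 was the threshold. There were 9 comparisons and 4 tests of a difference of effects. Each test of a difference used a single fit of all groups of both sets, with the spread shared by all of them. Genes had to pass the filter in both sets. The fit was tried first on simulated data, in each set only for the unstimulated model against its control. The tests of a difference were not simulated. Tables were made with Python 3.11.15 and pandas 2.3.3. Sets were scaled separately, so levels were not tested across them.

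The genes, lists and groups of samples were chosen with earlier results of these data known. In each comparison the text names every member past the threshold or, where fewer than 5 passed, the 5 with the smallest p, and of the longer lists at most 5 genes past the threshold. Groups follow the labels. The alternatives were a pseudocount of 0.1, no filter or a mean of at least 5 FPKM, median-ratio and summed scaling, a fit of only the 2 groups, a replicate block and leaving out each library. The sides of the first principal component and the share of small RNA were added after seeing the data. Same-numbered libraries of GENUS and CK-p25 microglia deviated from their group means together, at correlations of 0.105 to 0.338 over 4 pairs. The labels name no pairing. Same-numbered libraries also share a side of the first principal component, and pairs of unlike numbers were not compared. A pairing therefore cannot be told apart from the sides. The values in the text come from the fit without pairing, and the replicate block is an alternative. In the other comparisons at least 1 pair was below 0.1. Promoter sequences came from RefSeq, build GRCm38.p6.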

Additional observations from a re-analysis of the deposited data

Results flagged for a closer look

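In 37 of 355 groups of 4 to 6 libraries, 1 library of a member lay far from the others of its group by Dixon's test at the 95% level, which chance gives in about 1 group of 20. Microglia GENUS replicate 4 was the high library in 11 of these: Hspa5 at 1157 FPKM, Hsp90ab1 at 715 FPKM, Pdia3 at 628 FPKM, Hspa1b at 542 FPKM, Hspa1a at 403 FPKM, Dnajb1 at 219 FPKM, Hsp90aa1 at 93.4 FPKM, Manf at 70.5 FPKM, Hsph1 at 38.5 FPKM, Bag3 at 24.2 FPKM and Hspb1 at 19.4 FPKM. The markers of that library stand beside the heat shock results, and their part was not tested. In microglia GENUS replicate 3 Calr (369 FPKM) and Eif2ak3 (10.1 FPKM) were low.

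In CK-p25 microglia Atf6 was low (10.4 FPKM) and Eif2ak3 high (10.8 FPKM) in replicate 1, while the high values were Pdia4 (136 FPKM) and Pdia6 (269 FPKM) in replicate 3 and Hspb1 (11.9 FPKM) in replicate 4. In CK microglia Hsph1 was high in replicate 1 (16.7 FPKM), Trib3 high (0.528 FPKM) and Dnajb1 low (47.3 FPKM) in replicate 2, and Asns high in replicate 3 (2.12 FPKM).

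In GENUS neurons of CK-p25 mice Bag3 was low in replicate 1 (0.197 FPKM) and Sel1l low in replicate 2 (33.8 FPKM), and replicate 3 was high in Edem1 (8.49 FPKM), Hspa8 (93.6 FPKM) and Hsph1 (34.1 FPKM). In CK-p25 neurons Atf4 (41.1 FPKM), Hsp90ab1 (169 FPKM) and Hspa8 (94.7 FPKM) were high in replicate 1 and Hsf2 (12.5 FPKM) in replicate 2. In CK neurons replicate 5 was high in Hsp90b1 (209 FPKM), Pdia3 (50.9 FPKM) and Pdia6 (29.3 FPKM), and replicate 1 was high in Creld2 (7.31 FPKM). In the P301S set Sel1l in GENUS replicate 3 (55.2 FPKM) and Hsf2 in P301S replicate 6 (12.7 FPKM) were high.

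The effect of p25 differed between microglia and neurons by the test of the difference for Asns (1.91, with CK microglia below 1 FPKM), Eif2ak3 (-0.90) and Hsf1 (-0.68), on the log2 scale.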

How the results depend on the processing

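Each of 53 results was the log2 change of a named member in 1 comparison, with 909 values under other settings. Of these values 886 kept their direction and their side of the threshold. Another 21, from 6 members (Hspd1, Ddit3, Calr, Hspe1, Ppp1r15a and Hspa5), kept the direction and lost the call, and 2 values, both of Calr, turned. The results that had passed were 8 for CK-p25 against CK microglia and 10 for GENUS against CK microglia. Every value that changed belonged to one of those, and the other results had no call to lose. Counts of members are given below, apart from these values. Leaving out 1 library at a time gave 8 to 8 members for CK-p25 against CK microglia, 8 to 10 for GENUS against CK microglia, 2 to 4 for the difference between microglia and neurons and 0 to 0 in the other comparisons and differences. A filter at a mean of 5 FPKM left 5 members for CK-p25 against CK microglia, since Trib3, Chac1 and Asns were then not tested. Scaling to summed FPKM without small RNA genes gave 15 members for CK-p25 against CK microglia, 19 for GENUS against CK microglia (5 higher, 14 lower, with the median of all genes at -0.34 against -0.03) and 5 for the difference between microglia and neurons, and the change of Calr became -0.00306 and -0.0348. The cause of these shifts was not tested. Under that scaling Hspd1 (adjusted p = 0.117) and Ddit3 (0.0758) lost the call for CK-p25 against CK microglia, and Hspe1 (0.0658), Ppp1r15a (0.105) and Hspa5 (0.50) for GENUS against CK microglia. With no filter on low values Ppp1r15a (0.0836) and Hspa5 (0.0992) lost it too.

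The fit with a replicate block called 10 members in each of the comparisons of microglia with CK and 0 in all others. It changed no call between GENUS and CK-p25 microglia, where the smallest adjusted p of a member was 0.505. With a term for the sides instead, 10 members passed for CK-p25 against CK microglia, beside 3091 of all genes. For GENUS against CK microglia 12 passed, beside 3493 of all genes, and for GENUS against CK-p25 microglia 0 passed. Over all genes the block called 72 for CK-p25 against CK neurons (127 without) and 84 for GENUS against CK neurons (183 without), where a mean of 5 FPKM gave 57 and 109, a fit of 2 groups 80 and 107, and leaving out 1 library 77 to 149 and 92 to 166. For the difference between microglia and neurons, a mean of 5 FPKM gave 764 genes and the summed scaling 2346, against 1151. The summed scaling called 4853 genes for CK-p25 against CK microglia (2802 without) and 5314 for GENUS against CK microglia (3195 without). The P301S comparisons with WT called 0 to 4 genes over all settings, and the difference between p25 and P301S 6 to 63 over its settings (12 in the fit as reported). Depth is unknown, so no limit from it can be given.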
